A study of Arabidopsis thaliana with 6 samples.

Results

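The 5 Arabidopsis thaliana genes AT1G22060, AT1G65010, AT1G19835, AT5G53020 and AT4G37080 were described on 6 Affymetrix ATH1 arrays of leaf RNA. They were chosen by their measured values in the comparison described here: in the array annotation each has 1 probe set that names that gene alone, and in each the des1-1 mean was more than 1 log2 unit below the wild-type mean. The 5 probe sets are a small part of the 22746 probe sets without controls, of which 13513 carry 1 gene name. All 5 were measured, and no filter on low values was applied to them. The des1-1 group held 3 biological replicates of a line (SALK_03855) with an insertion in DES1, a gene of the O-acetylserine(thiol)lyase family whose enzyme takes part in cysteine turnover. The wild-type group held 3 biological replicates of the accession Col-0. Leaves of both groups came from plants 3 weeks old, grown in soil with Hoagland medium under the same light and temperature cycle, and a single mutant line was used. Each value is a log2 expression value made by the authors with RMA, so a difference of 1 is a 2-fold difference in signal.

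Little is known of these genes, and the reference table gives them by locus identifier only. From general knowledge, AT1G65010 belongs to the WEB family, named after a coiled-coil protein that acts in the light-driven movement of chloroplasts. AT1G19835 encodes a filament-like plant protein, a plant family of long coiled-coil proteins. AT1G22060 encodes a very long protein with an NT-C2 domain, a domain also found in proteins of plastid movement. AT4G37080 encodes a protein with a DUF547 domain and a leucine zipper. Coiled coils are pairs or bundles of long helices that serve as scaffolds and tethers in the cytoskeleton and on membranes. No role is given here for AT5G53020.

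Array medians lay between 5.78 and 5.81, as the normalization in RMA sets them. The first principal component, computed without the 5 genes, held 51.7% of the variance. Its scores were 1.40, 12.57 and 27.96 for des1-1 1 to 3 and -19.47, -14.94 and -7.53 for wild type 1 to 3. Wild type 2 stood apart in the 25S ribosomal RNA control, with 10.2 against 5.49 to 6.20 on the other arrays. DES1 has no probe set with 1 gene name here, so its own level could not be used to check the labels. Leaf marker genes were bright in both genotypes: PRK, LHCB4.2, RCA and LHCB4.1, genes of carbon fixation and light harvesting, had means of 12.97, 12.48, 14.02 and 13.78 in des1-1 and 13.14, 12.41, 14.08 and 13.74 in the wild type. The 4 root markers that have a probe set with 1 gene name had means between 4.43 and 5.54, below the array medians.

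AT1G22060, the gene with the longest span of the 5, read 6.29, 5.47 and 5.19 on the des1-1 arrays and 7.13, 6.94 and 6.38 on the wild-type arrays. Its highest des1-1 array lay 0.09 below its lowest wild-type array, while the des1-1 arrays among themselves covered 1.1 log2 units. The des1-1 mean was 5.65 ± 0.57 and the wild-type mean 6.82 ± 0.39 (SD, n = 3 each), a difference of -1.17, or 2.24-fold lower in des1-1.

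AT1G65010, the gene of the WEB family, read 6.36, 5.31 and 5.38 in des1-1 and 7.26, 6.81 and 6.30 in the wild type. It was the only gene of the 5 whose genotypes overlapped, since des1-1 1 stood 0.06 above wild type 3. The means were 5.68 ± 0.59 in des1-1 and 6.79 ± 0.48 in the wild type (SD, n = 3 each), a difference of -1.11. The wild-type range of 0.96 was the widest of the 5 genes and close to the des1-1 range of 1.05.

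AT1G19835, the filament-like plant protein gene, was the brightest, at 8.39, 7.79 and 7.11 in des1-1 and 9.19, 8.83 and 8.51 in the wild type. Its mean over all arrays, 8.30, was above that of 80.3% of probe sets, whereas the other 4 genes stood between the 55.6 and the 61.2 percentile of level. Its means were 7.76 ± 0.64 in des1-1 and 8.84 ± 0.34 in the wild type (SD, n = 3 each), a difference of -1.08. It also had the widest range over the 6 arrays, 2.08 log2 units or 4.23-fold.

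AT5G53020 read 6.54, 5.53 and 5.43 in des1-1 and 7.17, 6.84 and 6.82 in the wild type. The wild-type arrays were close together, with an SD of 0.20, and the des1-1 arrays were not, with an SD of 0.61. The difference was -1.11, from means of 5.83 in des1-1 and 6.94 in the wild type, and the gap between the genotypes, 0.28, was the widest of the 5.

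AT4G37080, with the DUF547 domain, read 6.86, 5.92 and 5.82 in des1-1 and 7.41, 7.23 and 6.99 in the wild type. Its pattern was nearly that of AT5G53020: a narrow wild-type group (SD 0.21), a des1-1 1 array only 0.13 below wild type 3, and the other des1-1 arrays about 1 log2 unit further down. The means were 6.20 ± 0.57 in des1-1 and 7.21 ± 0.21 in the wild type (SD, n = 3 each), a difference of -1.01.

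**Figure D1:**
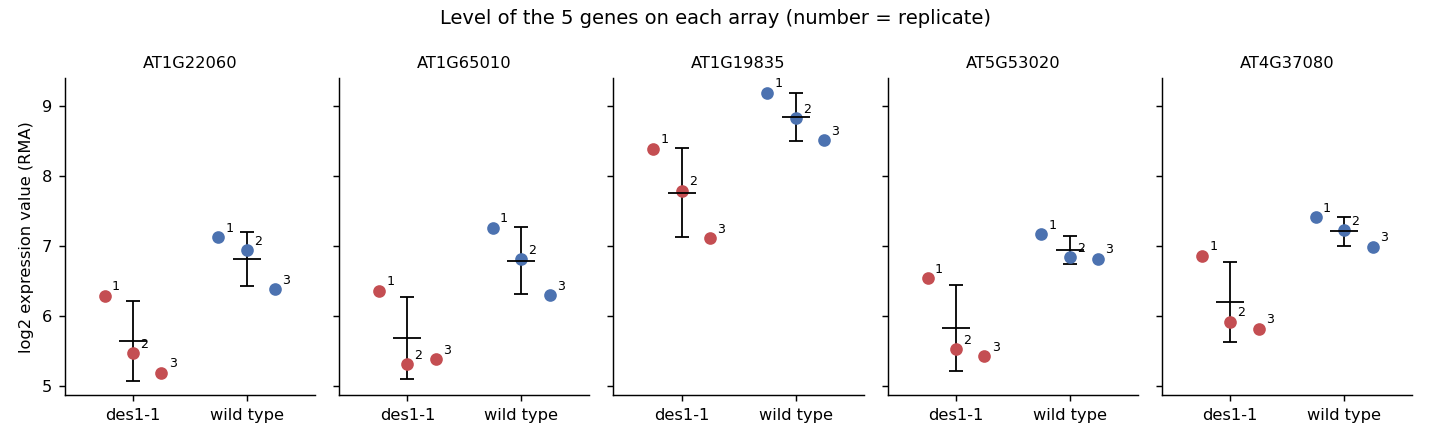
Log2 expression values (RMA) of the 5 genes, 1 panel per gene, with des1-1 left of wild type. Points are arrays numbered by replicate, and the horizontal mark with its bar is the mean ± SD of 3 arrays. In every panel des1-1 1 is the highest des1-1 array and lies within 0.28 of wild type 3.

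The lowest values of all 5 genes lay on 2 of the 3 mutant arrays, des1-1 2 and des1-1 3. Averaged over the 5 genes, the arrays stood at 6.89, 6.0 and 5.79 in des1-1 and at 7.63, 7.33 and 7.0 in the wild type. The des1-1 mean was 6.23 ± 0.58 and the wild-type mean 7.32 ± 0.32 (SD, n = 3 each), a difference of -1.09. The array des1-1 1 was 0.11 below wild type 3 but 0.99 above the mean of the other 2 des1-1 arrays. For single genes that step within des1-1 was 0.94 to 1.06, against a distance of -0.28 to 0.06 between des1-1 1 and wild type 3. When the 6 values of a gene were put in order, the largest step fell between these neighbouring arrays and the pair des1-1 2 and des1-1 3 in 4 of the 5 genes. The exception was AT1G19835, with its largest step, 0.68, between des1-1 2 and des1-1 3. Differences between genotypes took up 61.5% to 69.0% of each gene's variance over the 6 arrays, and the remainder lay within genotypes. Without des1-1 1 the mean difference of the 5 was -1.43, and without des1-1 3 it was -0.87.

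Spread within genotypes was large compared with the array as a whole. The SD within des1-1 was 0.57 to 0.64 for the 5 genes, against a median of 0.11 and a 99th percentile of 0.42 over all probe sets. Within the wild type the SD was 0.39, 0.48 and 0.34 for AT1G22060, AT1G65010 and AT1G19835, above the 99th percentile of 0.32. It was 0.20 and 0.21 for AT5G53020 and AT4G37080, which is near the 90th percentile of 0.20. The range over all 6 arrays was 1.59 to 2.08 for the 5 genes, against a median of 0.33 and a 99th percentile of 1.15 over all probe sets. The choice of the genes fixes a range of more than 1 log2 unit, and they were chosen with their pattern across arrays in view. Nothing is therefore read from these comparisons of spread.

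None of the 5 genes passed an adjusted p under 0.05 in limma (0 of 5, against 0.387% of all probe sets in either direction), and all 5 had an unadjusted p under 0.05 (15.6% of all probe sets). In 4 of the 5 genes every des1-1 array was below every wild-type array, which held for 8.66% of all probe sets. Because this contrast was used to choose the genes, nothing is read from these counts. The count past the adjusted threshold depended on the fit: all 5 genes passed when des1-1 1 was left out, where 3.36% of all probe sets passed, and also with all arrays and the replicate number as a block, where 0.805% passed. Among 12374 probe sets of nuclear protein-coding genes with 1 name and a known span, these 5 were the ones at least 1 log2 unit lower in des1-1. The next were BGLU33 and AT1G60590 at -0.98 each, AT1G01320 at -0.97 and IQD31 at -0.97.

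How closely the 5 genes followed each other across arrays is given as a description, since they were chosen with this pattern in view. Each gene was centred on its own mean over the 6 arrays, and 2 genes were compared by the root mean square difference of their centred values, in log2 units. Over the 10 pairs this distance was 0.09 to 0.23, while a single gene covered 1.59 to 2.08 log2 units. The nearest pair was AT5G53020 and AT4G37080 (0.09) and the farthest AT1G65010 and AT1G19835 (0.23). With each genotype's mean removed first, the distances were 0.07 to 0.23, while a single gene covered 0.35 to 1.28 log2 units within a genotype. Removing these means can only lower a distance, so nothing is read from the likeness of these distances to those over all arrays. In all 5 genes wild type 1 was the highest array and wild type 2 the second highest. In 4 of the 5 the full order from high to low was wild type 1, wild type 2, wild type 3, des1-1 1, des1-1 2, des1-1 3. This is also the order of the arrays on the first principal component computed without the 5 genes. Within each genotype, the signal of these 4 genes thus fell with the replicate number. AT1G65010 differed from that order in wild type 3 and des1-1 1, and in des1-1 3 and des1-1 2, which changed places. The genes agreed most closely on des1-1 1, where their centred values lay within 0.10 of each other, and least on des1-1 2, where they covered 0.41.

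**Figure D2:**
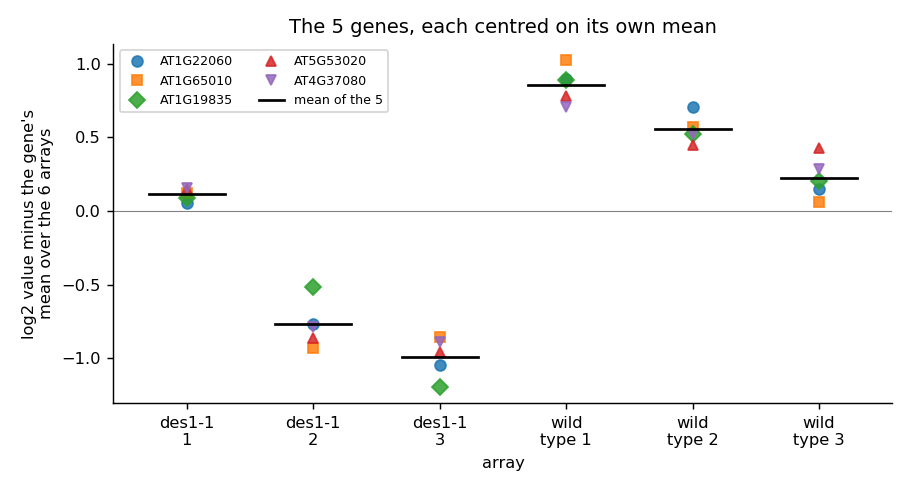
Log2 values of the 5 genes, each minus its mean over the 6 arrays, by array with des1-1 left of wild type. Symbols are genes and the black bars their mean, which is 0.11, -0.77 and -0.99 on the des1-1 arrays and 0.86, 0.56 and 0.23 on the wild-type arrays.

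Each gene was also compared with the mean of the other 4. AT1G22060 and AT4G37080 had no probe set outside the 5 that came nearer to the others than they did, at distances of 0.10 each, among 22742 compared. AT5G53020 had 1 nearer probe set, AT1G19835 had 9 and AT1G65010 had 11. The median distance of all probe sets was 0.67 to 0.69. These ranks describe how the genes were chosen and are not evidence for a group.

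Other named genes with a similar pattern were sought by the distance to the mean profile of the 5, over the 6 arrays and 13281 probe sets, 1 per gene. Which genes are nearest depends on that measure, as 2 of the 10 were also among the nearest 10 by Pearson r. The nearest was IQD31, of a calmodulin-binding family, at a distance of 0.11. It read 7.85, 7.07 and 6.98 in des1-1 and 8.50, 8.40 and 7.91 in the wild type. As in the 5 genes, des1-1 1 stood beside wild type 3 and apart from the other des1-1 arrays. BGLU33, of the beta-glucosidase family, followed at 0.14 with 7.46, 6.91 and 6.71 in des1-1 and 8.34, 7.93 and 7.75 in the wild type. ATSPS4F, a sucrose-phosphate synthase gene, was at 0.15 with 10.22, 9.51 and 9.24 in des1-1 and 10.68, 10.61 and 10.40 in the wild type. This gene was far brighter than the 5 and had the same step within des1-1. The remaining genes of the nearest 10 were AT5G55100, AT4G33500, AT5G46070, AT1G01320 and AT1G12800, and the plastid ribosomal protein genes rpl36 and rps3. The genotype difference of the 10 genes ran from -1.14 for rps3 to -0.76 for AT1G12800. In limma 0 of the 10 passed (adjusted p of 0.105 to 0.182), against 0.387% of all probe sets in either direction. In 9 of the 10 every des1-1 array was below every wild-type array, against 8.66% of all probe sets. AT4G33500 was the exception, with 8.51 on both des1-1 1 and wild type 3. Since the 10 were picked for their likeness to the 5 genes, nothing is read from these counts.

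**Figure D3:**
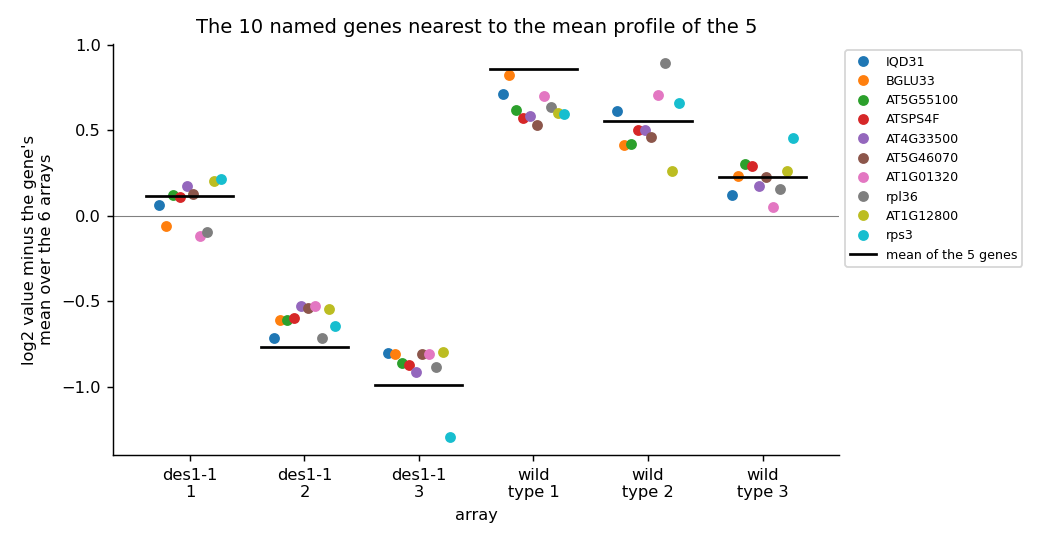
Log2 values of the 10 named genes nearest to the mean profile of the 5 genes, each minus its own mean over the 6 arrays, with des1-1 left of wild type. Points are genes and the black bars the mean of the 5 genes. The 10 genes follow the bars with distances of 0.11 to 0.20, and on des1-1 2 and wild type 1 all of them lie closer to 0 than the bars do.

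Long gene span was shared by the 5 genes. From start to end, introns included, AT1G22060 spans 8477 bases, AT1G65010 5205, AT1G19835 4665, AT5G53020 4122 and AT4G37080 4000 in the TAIR10.1 gene table, against a median of 2125 over the 12374 nuclear probe sets. The shortest of these spans exceeded that of 88.4% of the nuclear probe sets and the longest that of 99.1%. The name long genes therefore holds for all 5, by gene span. The 8 nuclear genes among the nearest 10 were also long, between the 84.4 percentile of IQD31 and the 99.5 percentile of AT1G01320. The plastid genes rpl36 and rps3, with spans of 114 and 657 bases, were not.

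All nuclear genes were divided by span into 10 classes of about equal size. The median genotype difference was above 0 in classes 1 to 6 and below 0 in classes 7 to 10, the longer genes. The median log2 difference was 0.01 in class 1, the shortest 10% of genes (up to 934 bases), 0.05 in class 3, -0.04 in class 9 (3325 to 4195 bases) and -0.09 in class 10, the longest 10% (from 4196 bases). In the longest 10% 71.8% of 1238 probe sets were lower in des1-1, against 48.2% of all nuclear probe sets. All des1-1 arrays lay below all wild-type arrays in 19.8% of the longest 10% and in 4.75% of the shortest, and above them in 2.42% and 10.7%. The order of arrays seen in 4 of the 5 genes occurred in 102 nuclear probe sets, those 4 included. Of the 102, 52 were in the longest 10%, AT1G22060 and AT1G19835 among them, and 0 in the shortest. Among the 100 nuclear genes nearest to the mean profile, 56 were in the longest 10%, 21 in class 9 and 3 in classes 1 to 5. No test was made of these shares, since genes of 1 array are not replicates and the 5 genes had been chosen with this pattern in view.

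Per array, the median centred value of the longest 10% was -0.003, -0.04 and -0.10 on des1-1 1 to 3 and 0.07, 0.06 and 0.02 on wild type 1 to 3. From high to low the arrays stood in the order found in 4 of the 5 genes. The size of these medians is not compared with the 5 genes, which were chosen for large differences. Set against the median of genes in the same span class on each array, a setting chosen after seeing the data, the mean difference of the 5 was -1.02 in place of -1.09. The part of gene span in the differences of the 5 genes was not tested. As the choice of the genes fixes, they had the lowest differences of their span classes, AT1G22060, AT1G65010 and AT1G19835 among 1238 probe sets, and AT5G53020 and AT4G37080 among 1236.

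**Figure D4:**
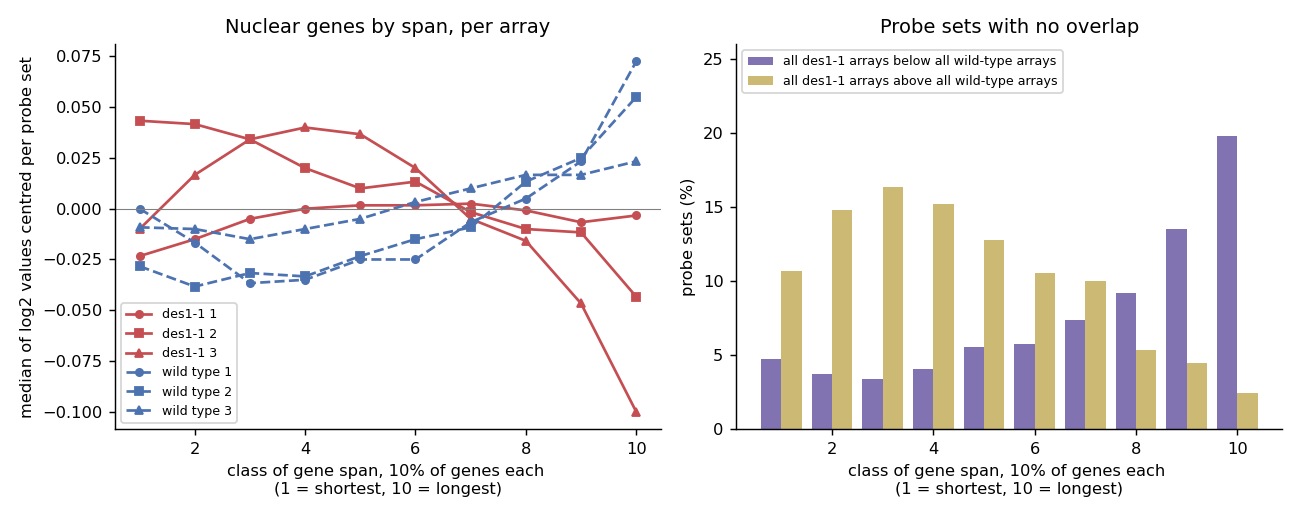
Left, median over nuclear probe sets of the log2 value minus the probe set's mean, by class of gene span, with 1 line per array (solid for des1-1, dashed for wild type). Right, share of probe sets in each class whose genotypes did not overlap. In the longest 10% the medians run from -0.10 on des1-1 3 to 0.07 on wild type 1, and 19.8% of probe sets had all des1-1 arrays below all wild-type arrays.

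The 3 prime and 5 prime control probe sets, which compare the ends of a few abundant transcripts, were set beside these values. For GAPDH in the r2 control set, the 3 prime signal minus the 5 prime signal was -0.57, -0.32 and -0.51 in des1-1 and -0.74, -0.65 and -0.66 in the wild type, so the genotypes did not overlap. For the other GAPDH pair the values were 1.1, 0.86 and 0.96 in des1-1 and 0.80, 1.26 and 0.98 in the wild type, and for actin in the r2 set 1.40, 1.33 and 1.24 in des1-1 and 1.43, 1.33 and 1.09 in the wild type. Those genotypes overlapped, as did those of the second actin pair and the r2 ubiquitin pair. The second ubiquitin pair read 1.43, 1.39 and 1.38 in des1-1 and 1.37, 1.37 and 1.36 in the wild type, so these genotypes did not overlap either, with des1-1 higher as in the GAPDH r2 pair. The part of RNA quality in the pattern of the 5 genes was not tested. In whole leaves, fewer cells of a type and less RNA per cell cannot be told apart.

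The genes beside the 5 on the chromosomes were also described. On each side of each gene, the nearest protein-coding locus within 5 steps that has a probe set with 1 gene name was taken. This gave 9 neighbours, as AT1G19835 had none on the lower side. Their genotype differences lay between -0.38 and 0.42, and 4 of 9 were lower in des1-1. AT1G65000 and AT1G65020, which flank AT1G65010, had means of 7.43 and 6.70 in des1-1 and 7.01 and 6.84 in the wild type, differences of 0.42 ± 0.11 and -0.14 ± 0.09 (SE). The neighbours of AT5G53020, AT5G53010 and AT5G53030, differed by 0.06 ± 0.08 and 0.11 ± 0.10 (SE). None of the 9 passed in limma (adjusted p of 0.154 for AT1G65000 to 0.958 for AT1G22080), against 0.387% of all probe sets in either direction. Their ranges over the 6 arrays were 0.21 to 0.74, against a median of 0.33 over all probe sets. The 5 genes were chosen by their values in this contrast, so nothing is read from their wider ranges of 1.59 to 2.08.

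Relatives of the 5 genes and other long coiled-coil and cytoskeletal genes were followed in 8 lists, with the 5 genes left out. Of 94 loci on the lists 43 had a probe set with 1 gene name, and only such loci are called measured for the lists. The other loci may have probe sets that are unnamed or carry several gene names. None of the 43 passed an adjusted p under 0.05 in limma in either direction, against 0.387% of all probe sets, and 9 of the 43 had an unadjusted p under 0.05, against 15.6% of all probe sets. Below 0 were 36 of the 43 differences, against 48.2% of all nuclear probe sets and 71.8% of those of the longest 10% of genes, with a median of -0.10 against 0.00 over all probe sets. With des1-1 1 left out, 2 of the 43 passed in limma, against 3.36% of all probe sets in either direction. Both were lower, AT2G40480 (-0.47, adjusted p = 0.0377) and AT1G47900 (-0.83, adjusted p = 0.0497).

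Among the filament-like plant proteins, 5 of the 6 relatives of AT1G19835 were measured, and all 5 differences were below 0, with a median of -0.33. AT1G47900 read 6.55, 6.37 and 5.71 in des1-1 and 6.99, 6.78 and 6.83 in the wild type, so its spread in des1-1 came from des1-1 3, while des1-1 2 stayed beside des1-1 1. Its means were 6.21 ± 0.44 in des1-1 and 6.87 ± 0.11 in the wild type (SD, n = 3 each), a difference of -0.66 ± 0.19 SE (adjusted p = 0.172). AT1G77580 differed by -0.33 ± 0.07 SE (adjusted p = 0.124) and AT3G05270 by -0.41 ± 0.19 SE (adjusted p = 0.337). None of these values passed.

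In the WEB and PMI2 family, whose founding members act in chloroplast movement, 11 of the 16 relatives of AT1G65010 were measured and 10 stood below 0, with a median of -0.09. AT5G16730 was the one most like the 5 genes, at place 21 of the 13281 probe sets by distance (0.24). It read 5.12, 4.54 and 4.48 in des1-1 and 5.99, 5.46 and 4.98 in the wild type, with des1-1 1 above wild type 3 as in AT1G65010. Its means were 4.71 in des1-1 and 5.48 in the wild type, a difference of -0.76 ± 0.25 SE (adjusted p = 0.208). AT2G40480 differed by -0.43 ± 0.08 SE (adjusted p = 0.0732) and AT3G02930 by -0.24 ± 0.11 SE (adjusted p = 0.365). Most other relatives were dim, with wild-type means under 5. RMA compresses differences of dim probe sets, and its part in these values was not tested.

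For AT1G22060, 6 of 8 genes with an NT-C2 domain were measured, with a median of -0.17. AT5G20610, a relative of the plastid movement gene PMI1, differed by -0.34 ± 0.09 SE (adjusted p = 0.159). AT1G63300 differed by -0.17 ± 0.07 SE and AT5G41140 by -0.25 ± 0.17 SE, and both were dim, with means of 4.16 and 4.43 in des1-1 and 4.33 and 4.68 in the wild type. Of the DUF547 family, 12 of 13 relatives of AT4G37080 were measured, and their differences were small, from -0.21 to 0.09 with a median of -0.09. AT1G76620 had a 95% interval of -0.43 to 0.00, AT3G13000 one of -0.36 to 0.03 and AT2G23700 one of -0.47 to 0.12. They are not set against the difference of AT4G37080, which was used to choose that gene.

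The other lists had few loci with a probe set of 1 gene name. The myosins XI-I, XIJ and XIC, motors that move organelles along actin, differed by -0.25 ± 0.15, -0.05 ± 0.07 and -0.03 ± 0.08 SE, and their genes span 12516, 8064 and 9040 bases. NET1A, an actin-binding protein gene, differed by -0.21 ± 0.11 SE. Of the genes on the list named microtubule-associated proteins, SPR1 differed by 0.30 ± 0.12 SE and AN by 0.08 ± 0.07 SE. Both lay on the opposite side of 0 from the 5 genes. The very large genes AT2G17930 and AT5G23110, with spans of 18317 and 17576 bases, differed by -0.67 ± 0.22 and -0.46 ± 0.14 SE (adjusted p = 0.207 and 0.184). AT2G17930 read 7.79, 7.25 and 7.14 in des1-1 and 8.20, 8.38 and 7.61 in the wild type, so its genotypes overlapped. XIJ, XIC and NET1A were dim, at 4.68, 4.55 and 4.32 in des1-1 and 4.73, 4.58 and 4.53 in the wild type.

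**Figure D5:**
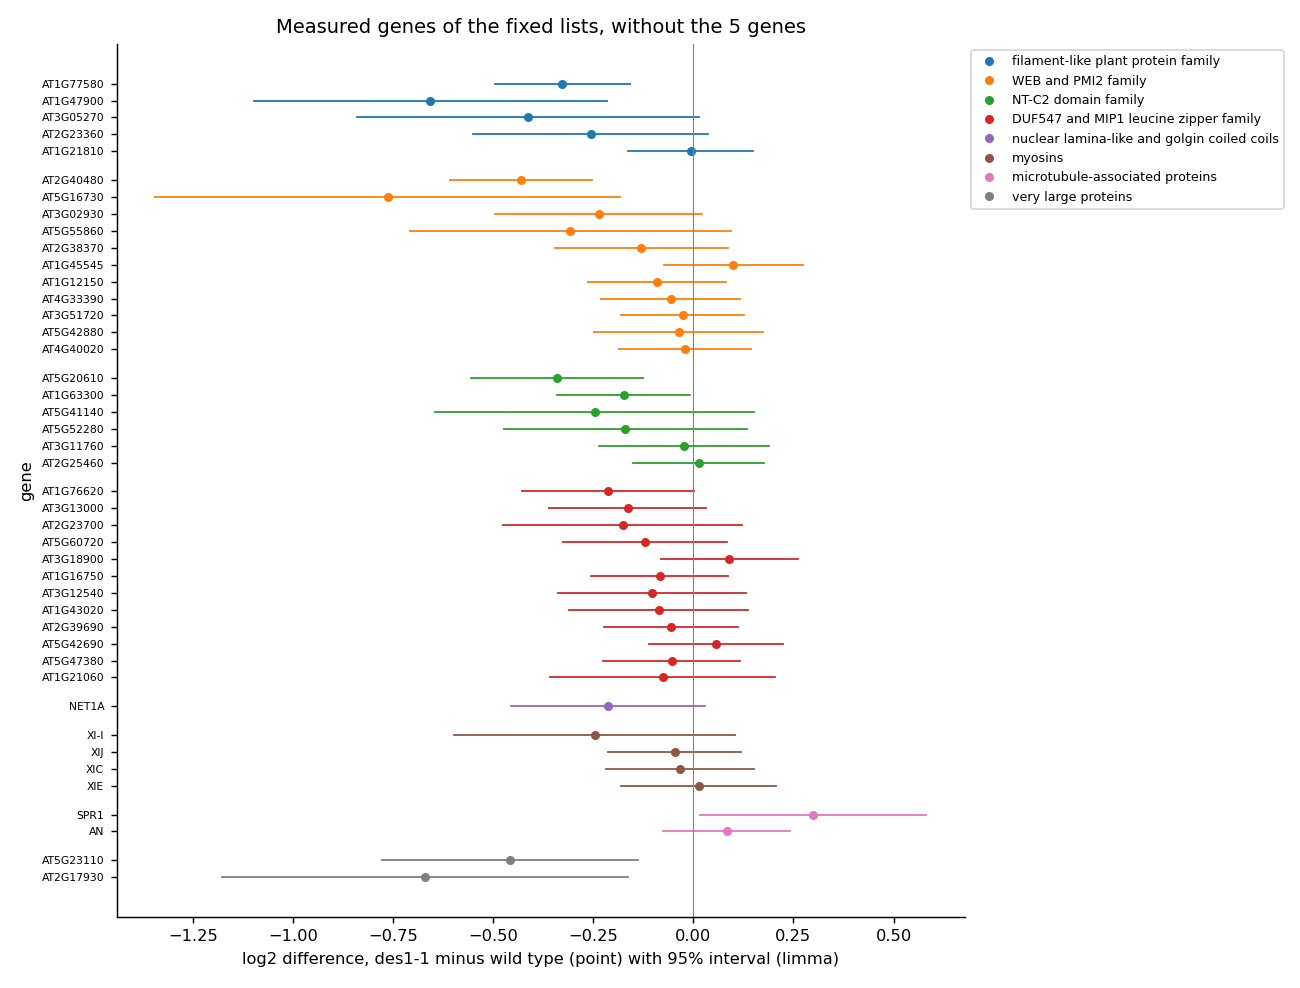
Log2 difference of des1-1 minus wild type (points) with 95% intervals from limma (lines) for 43 genes of the 8 lists. These are the list genes with a probe set of 1 gene name, coloured by list and without the 5 genes. Of the 43 points 36 lie below 0, the lowest at -0.76 for AT5G16730, and none passed an adjusted p under 0.05.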

How the data were processed

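Leaf RNA of des1-1 and wild type was hybridised to 6 arrays, 3 per genotype. The values deposited by the authors are on the log2 scale and come from RMA in affy, as the submitters' processing notes name them, without a version. RMA removes a shift shared by a whole array and compresses differences of dim probe sets. Precision is limited by the number of arrays, which have no read depth. The 64 control probe sets were kept out of the tests. Of 13513 probe sets with 1 gene, 13436 matched the TAIR10.1 table, used for symbols, neighbours and spans. Its coordinates are not printed, as the array annotation names no build. The 5 probe set names lack the suffixes that mark probes shared between genes.

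The fit across all 22746 probe sets used limma 3.58.1 (R 4.3.3), with lmFit and default eBayes on genotype alone, two-sided p-values and Benjamini-Hochberg adjustment, and was tested on simulated data. Other values were computed with Python 3.11.15 and pandas 2.3.3, and drawn with matplotlib 3.10.9. Members, lists and tests were chosen with earlier results of these data known. The rule for named genes took the 5 genes, the 10 nearest to their mean profile, and up to 3 of each list with the smallest unadjusted p, with the brightest probe set standing for a gene. The marker lists of guard cells (AT1G22690 and FMA, differences of 0.20 and 0.16) and of flower and pollen (AT3G28780, -0.10) had no gene past the test. None of the vascular, trichome and dividing-cell markers was measured. Other normalizations, filters on dim probe sets, eBayes settings, array weights, a replicate block, left-out arrays and another measure of likeness were tried. Ranking length by protein was not run, since no protein table was used here.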

Additional observations from a re-analysis of the deposited data

How the results depend on the processing

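The mean difference of the 5 genes, -1.09, kept its direction in all 10 alternatives and ran from -1.43 to -0.87, both ends with a single array left out. Each gene's difference also kept its direction in all 10, between -1.49 for AT1G22060 and -0.75 for AT1G19835. The range of each gene was recomputed under the 3 other normalizations only, where it lay between 1.56 for AT4G37080 and 2.18 for AT1G19835. The mean difference was -1.08 after median centring, -1.10 after quantile normalization and -1.10 after cyclic loess. The number of the 5 genes past the adjusted threshold, 0, became 5 with the replicate block, and was 0 to 5 with single arrays left out, where leaving out des1-1 1 gave the 5. The calls over all probe sets, 88 with 13 lower, became 151 (40 lower) with an intensity trend in eBayes, 183 (89 lower) with the replicate block, and 20 to 765 (0 to 546 lower) with single arrays left out. Lower calls were 27 and 26 without the dimmest 25% and 50% of probe sets. List genes past the threshold in limma, 0, became 1 with the replicate block (AT5G16730, adjusted p = 0.0442), where 0.805% of all probe sets passed. They were 0 to 2 with single arrays left out. The 2 came without des1-1 1, where 3.36% of all probe sets passed. Arrays with the same number had deviations that correlated at 0.17, -0.23 and 0.21 across probe sets. Those of replicate 1 correlated best with each other, as did those of replicate 3. Those of replicate 2 did not, so the numbers were not taken to pair the arrays. Between arrays of the same number, the mean of the 5 genes differed by -0.74, -1.33 and -1.21 (des1-1 minus wild type, replicates 1 to 3). The median difference of the longest 10% of genes, -0.09, was -0.18 without the dimmest 50% of probe sets. Of the 10 nearest genes 2 were also among the nearest 10 by Pearson r, which disregards the size of the changes, and 9 or 10 under the other alternatives. The cause of these changes was not tested.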

Other observations

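Genes higher in des1-1 were few among long genes. Of nuclear probe sets at least 0.5 log2 units higher in des1-1, span classes 1 to 5 (10% of genes each, from the shortest) held 15, 20, 15, 15 and 17, and classes 6 to 10 held 7, 6, 3, 1 and 0. Of those at least 0.5 lower, classes 1 to 5 held 1, 2, 2, 5 and 6, and classes 6 to 10 held 7, 8, 14, 34 and 93. The 5 genes are counted in classes 9 and 10. The longest 10% had a median level of 6.05 and the shortest 10% one of 4.69. Whether level or span goes with these differences was not tested.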
